A study of Mus musculus with 8 samples.

Results

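Aldh1a1, Aldh1a7, Aldh1a2, Rdh10, Cyp26b1 and Rarb are 6 genes of retinoid handling among the 18846 gene symbols measured by RNA sequencing in mouse adrenal glands. They were picked by name from a listing of genes for making, degrading and binding retinoic acid. Enzyme activity was not measured, and the listing does not show that Aldh1a7 makes retinoic acid. The behaviour of Aldh1a1 across genotype and ACTH treatment in these same libraries was already known. Values of the 6 genes across genotype and treatment are therefore a description: no p-value is given for any of them there, and counts of calls are printed for scale only. All 6 passed the filter on low counts.

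Vitamin A circulates as retinol, which is oxidized to retinal by alcohol and retinol dehydrogenases such as RDH10 and then to retinoic acid by aldehyde dehydrogenases of the ALDH1A family. Retinoic acid binds nuclear receptors, RARα, RARβ and RARγ, which sit on DNA as partners of RXR proteins, and the CYP26 enzymes clear it by hydroxylation. In the mouse adrenal, Aldh1a1 is known as an abundant cortical enzyme, and Rarb is a classic target of its own receptor through a retinoic acid response element in its promoter.

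The study compared Siah1a -/- mice, labelled as null for a ubiquitin ligase gene and called knockout below, with wild-type mice, all of the strain labelled 129SVEV. In each genotype, 2 animals had received ACTH, the pituitary hormone that drives adrenal steroid synthesis, at 100 µg/kg into the peritoneum for 1 hour, and 2 had received no agent. The untreated animals had no vehicle injection by the labels, so injection and hormone cannot be told apart. Each of these 4 groups held 1 animal labelled female and 1 labelled male, and each library came from a separate animal. Ages and the extent of the Siah1a deletion were not stated in the labels.

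Library totals were 8020111 to 29568950 estimated counts, and levels below are CPM (counts scaled to library size) after TMM scaling, or RPKM where genes are compared with each other. Siah1a itself was counted at 17.4 to 25.2 CPM in the 4 knockout libraries and at 26.1 to 33.1 CPM in the 4 wild-type libraries. Reads were thus still counted under this symbol in the knockout. How multiply matching reads were assigned is unknown here, so whether all of them came from the targeted gene is uncertain. All 7 adrenal cortex markers were present in every library, with a summed level of 38360 to 51210 CPM in knockout and 26960 to 45420 CPM in wild-type libraries. One wild-type library, ACTH and labelled female, held 61270 CPM of 7 liver markers, against 126 to 669 CPM in the other 7 libraries. Another, wild type, untreated and labelled male, held 1660 CPM of 7 kidney markers, against 0.285 to 7.88 CPM in the other 7. That library also went against its sex label, with 388 CPM of Xist and 3 of 4 Y-linked genes at 0. These 2 are called the 2 wild-type libraries of doubt below, and values that turn direction or move by over 1.5 times without them are given both ways. Each gland was sequenced whole, so fewer cells of a type and less RNA per cell cannot be told apart.

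RefSeq (GRCm38.p6) gave 6 promoter windows for 5 of the 6 genes, each running from 250 bases before to 50 bases after an annotated start site. Those of Aldh1a1, Aldh1a7 and Rarb are shown because the first pair had the lowest knockout levels relative to wild type and Rarb holds a known receptor element. In the Aldh1a1 and Aldh1a7 windows, capitals mark each CCAAT box and the octamer ATGCAAAT. In the Rarb window they mark a DR5 element, 2 receptor half-sites on one strand with 5 bases between them.
Aldh1a1, second annotated start, chr19:20601718-20602017, + strand: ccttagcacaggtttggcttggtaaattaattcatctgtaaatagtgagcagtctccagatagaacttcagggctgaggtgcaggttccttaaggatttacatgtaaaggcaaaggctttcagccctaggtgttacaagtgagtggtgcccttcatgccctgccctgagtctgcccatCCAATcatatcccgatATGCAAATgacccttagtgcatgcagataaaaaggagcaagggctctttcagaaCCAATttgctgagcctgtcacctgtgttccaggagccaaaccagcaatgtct
Aldh1a7, chr19:20727507-20727806, - strand: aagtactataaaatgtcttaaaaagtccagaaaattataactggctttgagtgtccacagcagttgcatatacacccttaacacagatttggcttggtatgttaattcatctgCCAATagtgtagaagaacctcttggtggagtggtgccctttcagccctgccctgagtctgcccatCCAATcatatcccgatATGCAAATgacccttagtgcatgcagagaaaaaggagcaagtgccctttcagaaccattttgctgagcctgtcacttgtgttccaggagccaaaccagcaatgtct
Rarb, chr14:16575427-16575726, - strand: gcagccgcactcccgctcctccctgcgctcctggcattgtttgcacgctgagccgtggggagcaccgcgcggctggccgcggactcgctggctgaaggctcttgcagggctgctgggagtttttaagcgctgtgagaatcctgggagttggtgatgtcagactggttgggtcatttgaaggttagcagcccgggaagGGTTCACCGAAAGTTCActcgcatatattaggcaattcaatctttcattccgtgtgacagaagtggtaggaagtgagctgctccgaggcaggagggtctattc

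Aldh1a1 (chromosome 19, 20492583 to 20643463) and Aldh1a7 (chromosome 19, 20692953 to 20727556, opposite strand) are neighbours with 49489 bases between them and no annotated gene lying wholly in that gap. The Aldh1a1 window shown is the one for the transcript that was counted, whose annotated start lies 7 bases from the window's start site. It shared 221 of 285 aligned bases (77.5%) with the Aldh1a7 window, and 95 of the last 100 bases were identical without a gap. The longest run common to both windows was 65 bases and covered the CCAAT box at -72 and the octamer at -56, counted from the start site. The other annotated Aldh1a1 start shared 26 of its last 100 bases with Aldh1a7. CCAAT occurred on either strand in 37.41% and the octamer in 1.74% of 32851 mouse promoter windows of this length. The Aldh1a2 window also held the octamer, at -84. The DR5 element of Rarb, searched as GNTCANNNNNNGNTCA without the first base of each half-site spelled out, matched from -52, the second of the marked bases, and 0.86% of all windows held a match. None of the 6 windows held the related DR2 spacing (GNTCANNNGNTCA, in 1.12% of all windows), the cAMP response element TGACGTCA (1.79%) or the NR5A half-site CAAGGTCA (1.56%). These are letter matches in short windows, and binding was not measured.

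Across all 8 libraries, the 6 genes covered a wide range of levels per length. Mean RPKM was 44.6 ± 36.6 for Aldh1a1, 14.6 ± 8.66 for Aldh1a2, 6.64 ± 1.93 for Rdh10, 6.39 ± 7.01 for Aldh1a7, 3.78 ± 1.44 for Rarb and 0.445 ± 0.275 for Cyp26b1 (SD, n = 8). Aldh1a1 therefore stood highest, and Cyp26b1 lowest by a wide margin. Rdh10 and Aldh1a7 were next to each other in this order and did not differ beyond their spread. The order differed between genotypes. Aldh1a2 reached 9.33 to 29.0 RPKM in knockout libraries, where Aldh1a1 lay at 7.68 to 29.3 RPKM, so the ranges of the pair nearly coincided there. In wild-type libraries Aldh1a2 lay at 3.59 to 18.7 RPKM and Aldh1a1 at 48.1 to 106 RPKM, with no overlap.

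Aldh1a1, a cytosolic retinal dehydrogenase, was lower in every knockout library than in any wild-type library. The ACTH-treated knockout glands held 30.8 CPM (labelled female) and 18.9 CPM (labelled male), and the untreated knockout glands 69.2 and 23.6 CPM. The ACTH-treated wild-type glands held 281 and 141 CPM, and the untreated wild-type glands 196 and 109 CPM, in the same order of labels. The highest knockout library was the untreated one labelled female, and it still lay below the lowest wild-type library. The means were 35.6 ± 22.9 CPM in knockout and 182 ± 75.2 CPM in wild-type glands (SD, n = 4 each), a ratio of 0.196 and a log2 fold change of -2.43 (SE 0.29).

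Taken pair by pair, with animals matched for treatment and sex label, Aldh1a1 was lower in the knockout by 9.12-fold (ACTH, labelled female), 7.47-fold (ACTH, labelled male), 2.82-fold (untreated, labelled female) and 4.61-fold (untreated, labelled male). The gap was thus wider in both ACTH-treated pairs than in either untreated pair. The 9.12-fold pair includes the wild-type library with liver transcripts, and the 4.61-fold pair the one with kidney transcripts. The remaining 7.47-fold and 2.82-fold pairs differ in sex label as well as treatment. Without the 2 wild-type libraries that hold liver or kidney transcripts, the log2 fold change averaged over treatment was also -2.43.

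Aldh1a7, a close relative of Aldh1a1, was likewise lower in every knockout library than in any wild-type library, at a lower level overall. Knockout glands held 1.69 and 0 CPM after ACTH and 8.21 and 2.33 CPM untreated, the library labelled female first. Wild-type glands held 51.9 and 35.0 CPM after ACTH and 15.2 and 13.4 CPM untreated. The 2 ACTH-treated wild-type libraries stood above the rest. The means were 3.05 ± 3.57 CPM in knockout and 28.9 ± 18.2 CPM in wild-type glands (SD, n = 4 each), a ratio of 0.106 and a log2 fold change of -3.85 (SE 1.29), or -4.23 without the 2 wild-type libraries of doubt. The count of 0 in the male-labelled knockout ACTH library allows up to 0.213 CPM (3 counts in that library, counting error only), which is at least 164-fold lower than its wild-type match.

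Since Aldh1a1 and Aldh1a7 are similar in sequence and how multiply matching reads were assigned is unknown here, their split is uncertain. Aldh1a7 amounted to 0 to 11.7% of the Aldh1a1 RPKM in knockout and to 7.65 to 24.5% in wild-type libraries. The share was therefore not constant, with both ACTH-treated wild-type libraries, at 18.2 and 24.5%, above the other 6.

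**Figure D1:**
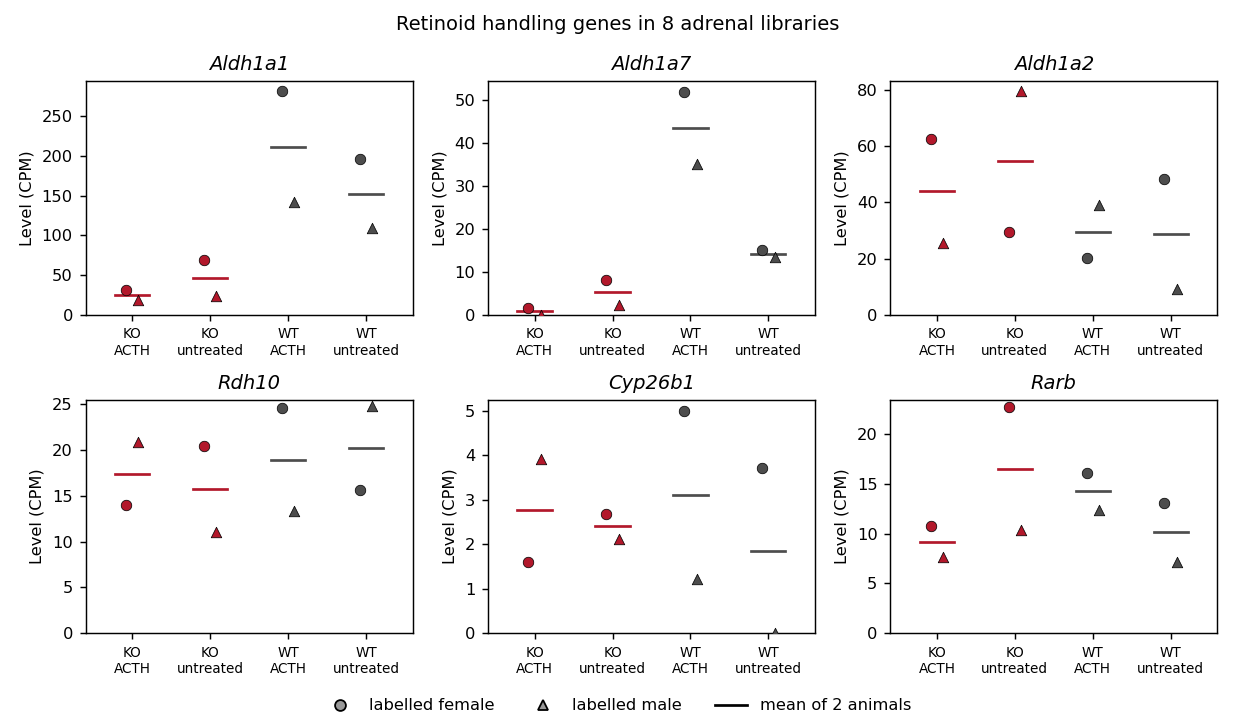
Level of each of the 6 genes in each library, in CPM on a linear axis from 0, with knockout (KO) groups left of wild-type (WT) groups. Points are single animals (circles labelled female, triangles labelled male) and lines the mean of the 2 animals of a group. The 4 knockout points of Aldh1a1 and Aldh1a7 lie below all 4 wild-type points, while those of the other 4 genes overlap.

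Aldh1a2, the retinal dehydrogenase best known from embryonic mesoderm and mesothelium (chromosome 9, 71215789 to 71296243), did not separate by genotype. Knockout glands held 62.4 and 25.6 CPM after ACTH and 29.6 and 79.5 CPM untreated, the library labelled female first. Wild-type glands held 20.1 and 38.9 CPM after ACTH and 48.4 and 9.06 CPM untreated. The means were 49.3 ± 26.1 CPM in knockout and 29.1 ± 17.8 CPM in wild-type glands (SD, n = 4 each), with a log2 fold change of 0.76 (SE 0.58). Both sets spread widely, and the lowest value came from the wild-type library that holds kidney transcripts. Without the 2 wild-type libraries of doubt, the log2 fold change was 0.17. The summed level of 6 mesothelium markers in knockout glands was 10.4 and 3.91 CPM after ACTH and 18.6 and 19.5 CPM untreated. In wild-type glands it was 18.1 and 12.5 CPM after ACTH and 16.5 and 1.76 CPM untreated, the library labelled female first. The lowest sum was in the library where Aldh1a2 was lowest, with 5 of 6 markers, Msln and Upk3b among them, at 0 there. That library was also the shallowest, where 3 counts make 0.353 CPM. Across the other libraries the sum and Aldh1a2 did not keep the same order. The part of these markers in the Aldh1a2 values was not tested.

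Rdh10, the retinol dehydrogenase that supplies most embryonic retinal (chromosome 1, 16105882 to 16132550), was the steadiest of the 6. Knockout glands held 13.9 and 20.8 CPM after ACTH and 20.4 and 11.1 CPM untreated. Wild-type glands held 24.6 and 13.3 CPM after ACTH and 15.7 and 24.8 CPM untreated, again with the library labelled female first. The 2 genotypes overlapped across most of their range, with means of 16.6 ± 4.82 CPM in knockout and 19.6 ± 5.97 CPM in wild-type glands (SD, n = 4 each) and a log2 fold change of -0.24 (SE 0.36), or 0.19 without the 2 wild-type libraries of doubt. Over the 8 libraries, its log2 levels ran opposite to those of Aldh1a2 (Pearson r = -0.901, n = 8, given as a description).

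Cyp26b1, a retinoic acid hydroxylase (chromosome 6, 84571414 to 84593908), was counted at a few CPM. Knockout glands held 1.61 and 3.91 CPM after ACTH and 2.68 and 2.13 CPM untreated. Wild-type glands held 5.0 and 1.23 CPM after ACTH and 3.72 and 0 CPM untreated, the library labelled female first. The 0 was in the shallowest library, where 3 counts make 0.353 CPM. The ranges overlapped and the log2 fold change was 0.79 (SE 1.44), or 0.17 without the 2 wild-type libraries of doubt. The other CYP26 genes were close to absent: Cyp26c1 was at 0 in all 8 libraries, and Cyp26a1 reached 0.0382 CPM in the wild-type library with liver transcripts and was at 0 in the other 7. The count files divide Cyp26b1 between 2 transcripts at 62.9 and 37.1% in each of the 7 libraries with reads, so this split carries no difference between libraries.

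Rarb, the retinoic acid receptor of the 6 (chromosome 14, 16430839 to 17082331), had similar averages in both genotypes. Knockout glands held 10.8 and 7.61 CPM after ACTH and 22.7 and 10.4 CPM untreated. Wild-type glands held 16.1 and 12.4 CPM after ACTH and 13.1 and 7.17 CPM untreated, the library labelled female first. The ranges overlapped, the highest value was in a knockout gland, and the means were 12.9 ± 6.69 CPM in knockout and 12.2 ± 3.72 CPM in wild-type glands (SD, n = 4 each), a log2 fold change of 0.01 (SE 0.40), or -0.14 without the 2 wild-type libraries of doubt.

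Behind this average, the deposited files divided Rarb between transcripts unevenly. NM_001289762 took 99.6, 99.6, 52.1 and 99.6% of the Rarb count in the knockout libraries (ACTH labelled female, ACTH labelled male, untreated labelled female, untreated labelled male) and 74.8, 31.6, 35.1 and 99.6% in the wild-type libraries in that order. NM_011243 held nearly all of the rest. The division was all-or-none in 4 libraries, 3 of them knockout, and mixed in the other 4. The all-or-none libraries had the same share of 99.6% and the lowest Rarb counts, 61 to 156, against 239 to 422 in the mixed ones. The split is therefore not read as a difference between genotypes. The annotation used here matches all 4 listed Rarb transcripts to the same annotated transcript, with its start at 16575543. It does not give each its own start, and the annotated gene runs on to 17082331 on the minus strand. Their promoters could therefore not be compared.

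**Figure D2:**
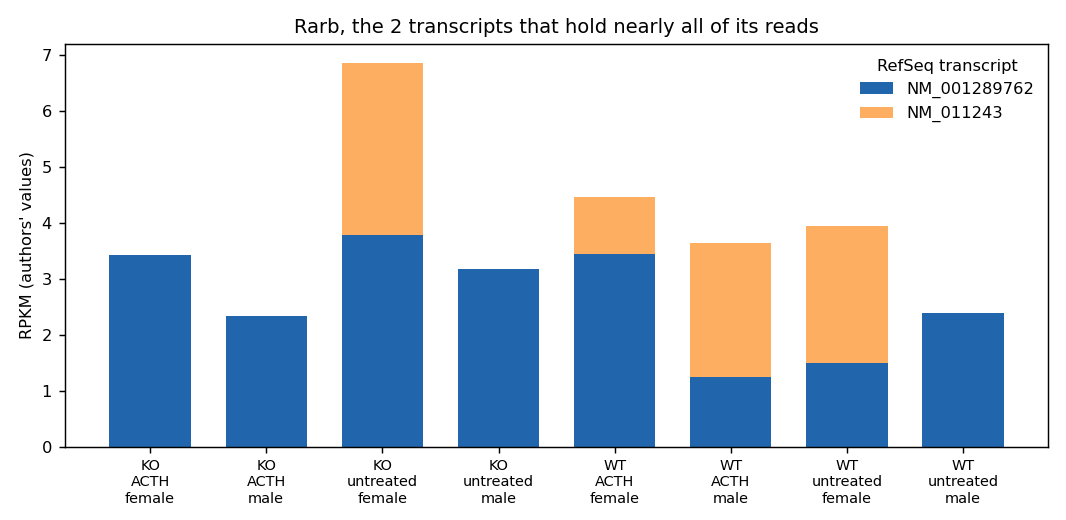
Deposited RPKM of the 2 Rarb transcripts that hold nearly all of its reads, stacked, in each library, with knockout (KO) left of wild type (WT). NM_011243 (upper segment) is seen in 4 libraries, 1 knockout and 3 wild type. It is at most 0.007 RPKM in the other 4, which have the lowest Rarb counts.

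By the rule of calling a gene at a Benjamini-Hochberg adjusted p under 0.05 in edgeR's quasi-likelihood test, 0 of the 6 genes were called between genotypes, where 0.026% of all 15361 tested genes were. At an unadjusted p under 0.05 there were 2 of 6, beside 13.4% of all genes. DESeq2 called 2 (947 of all genes) and limma-voom called 1 (108 of all genes). Of the 6, 2 had knockout libraries that did not overlap the wild-type ones, both lower, beside 8.92% of all genes (4.71% lower). The genes were chosen with this contrast in view, so these counts are printed for scale and nothing is read from them. Leaving out the male-labelled wild-type untreated library, the female-labelled wild-type untreated library or the male-labelled wild-type ACTH library raised the called number to 1 each time. Over all genes, 44, 253 and 57 were called in these fits, in that order. The p-values rest on the spread left between these 8 glands after the additive fit of genotype, treatment and sex label. With 1 gland per combination, that spread also holds any ACTH response that differs between genotypes, and the liver or kidney RNA.

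The markers of the X-zone, the transient inner cortex of young mice, were also lower in most knockout glands. The summed level of 4 X-zone markers (Akr1c18, Pik3c2g, Thrb and Abcb1b) was 1419 and 940 CPM in ACTH-treated knockout glands, 8917 and 2393 CPM in untreated knockout glands, 10600 and 7375 CPM in ACTH-treated wild-type glands, and 14930 and 8981 CPM in untreated wild-type glands, the library labelled female first. Pik3c2g was at 0 in the male-labelled knockout ACTH library, and no marker was at 0 elsewhere. The 2 genotypes overlapped in this sum, as the female-labelled knockout untreated library exceeded the male-labelled wild-type ACTH library. Akr1c18 made up most of it there, with 7186 CPM, against 134 to 1129 CPM in the other 3 knockout libraries and 3266 to 9273 CPM in wild-type libraries. Abcb1b did not overlap, with 753 to 1476 CPM in knockout and 2257 to 4912 CPM in wild-type libraries. Thrb did not overlap either, with 37.4 to 118 CPM in knockout and 126 to 198 CPM in wild-type libraries. Medulla markers ran from 1800 to 7369 CPM in knockout and from 1997 to 3991 CPM in wild-type glands. The part of either marker set in the Aldh1a1 and Aldh1a7 values was not tested.

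**Figure D3:**
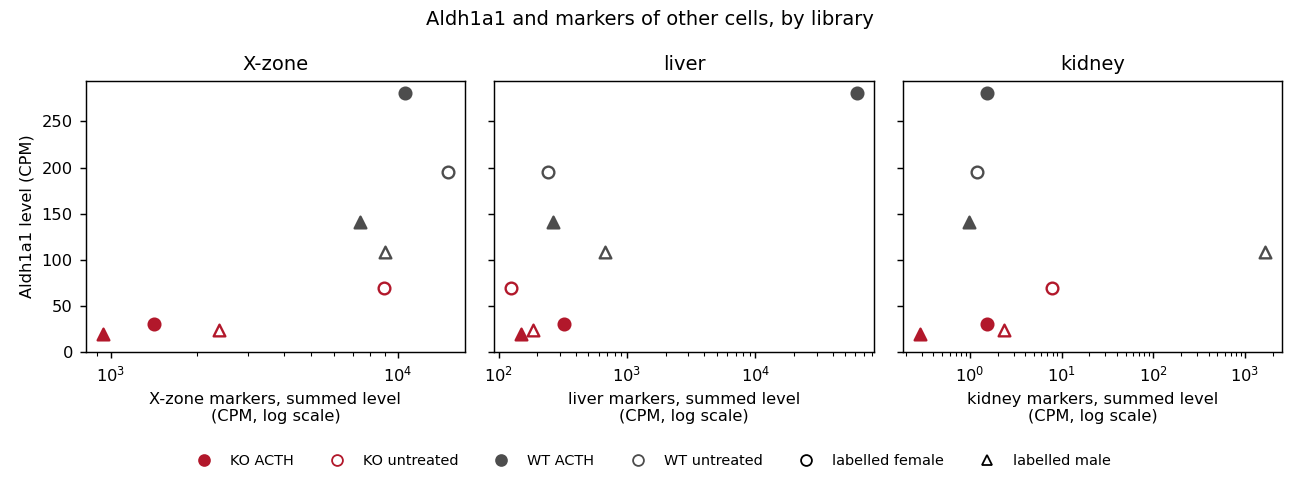
Aldh1a1 level (CPM) against the summed level of X-zone, liver and kidney markers (CPM, log axes) in each library, with knockout (KO) in red, wild type (WT) in grey, ACTH filled and untreated open. X-zone markers sum to 940 to 8917 CPM in knockout and 7375 to 14930 CPM in wild-type libraries, and the wild-type library with 61270 CPM of liver markers has the highest Aldh1a1 level (281 CPM).

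The ACTH comparison asked what 1 hour of hormone did, averaged over genotype. None of the 6 genes was called (0.0195% of all 15361 genes were), 0 of 6 had a p under 0.05 before adjustment (6.11% of all genes), DESeq2 and limma-voom called none of them, and 0 of 6 had ACTH libraries apart from untreated ones (3.89%). The average log2 fold changes, ACTH over untreated, were -0.15 (SE 0.28) for Aldh1a1, -0.51 (SE 1.23) for Aldh1a7, -0.14 (SE 0.58) for Aldh1a2, 0.03 (SE 0.36) for Rdh10, 0.79 (SE 1.27) for Cyp26b1 and -0.11 (SE 0.40) for Rarb. All of these are smaller than their errors. Without the 2 wild-type libraries of doubt they were -0.41 for Aldh1a1, -1.25 for Aldh1a7, -0.31 for Aldh1a2, 0.12 for Rdh10, -0.39 for Cyp26b1 and -0.40 for Rarb.

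Within genotypes, 3 of the genes had opposite signs. The log2 difference, ACTH minus untreated, of Aldh1a1 was -1.16 (labelled female) and -0.31 (labelled male) in knockout pairs and 0.52 and 0.38 in wild-type pairs. For Aldh1a7 it was -1.99 and -2.50 in knockout pairs and 1.74 and 1.35 in wild-type pairs. For Rarb it was -1.04 and -0.42 in knockout pairs and 0.29 and 0.75 in wild-type pairs. Each of these 3 was lower after ACTH in both knockout pairs and higher in both wild-type pairs, a pattern held by 4.36% of all tested genes, with the reverse held by 3.24%. The difference between genotypes was not tested, since the choice of genes used both factors. Aldh1a2 (1.07 and -1.62 in knockout, -1.24 and 2.04 in wild type), Rdh10 (-0.53 and 0.88, 0.63 and -0.87) and Cyp26b1 (-0.59 and 0.75, 0.38 and 1.79) had no common direction within the knockout pairs. One of the wild-type pairs always includes a library that holds liver RNA and the other a library that holds kidney RNA, so the wild-type side has no pair free of them.

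**Figure D4:**
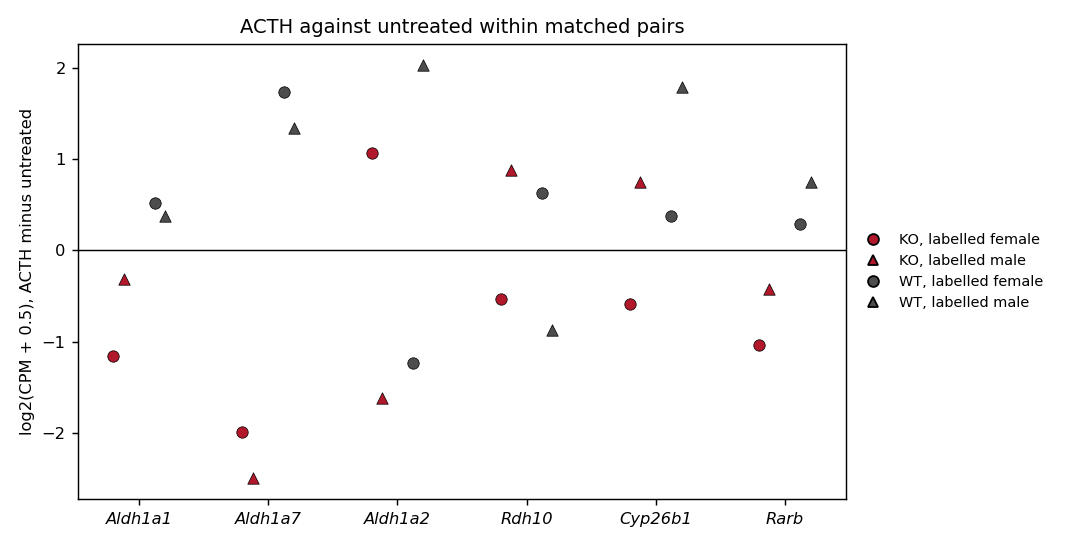
Log2 difference in level, ACTH minus untreated (pseudocount 0.5 CPM), for each of the 6 genes in the 2 knockout pairs and the 2 wild-type pairs, matched by sex label. Aldh1a1, Aldh1a7 and Rarb lie below 0 in both knockout pairs and above 0 in both wild-type pairs.

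Sex label was not used to choose the genes and could be tested. Aldh1a1 averaged 144 ± 115 CPM in glands labelled female and 73.2 ± 61.4 CPM in glands labelled male (SD, n = 4 each), and it was higher in the gland labelled female in 4 of 4 matched pairs. Those pairs differed 1.63-fold (knockout, ACTH), 2.93-fold (knockout, untreated), 1.99-fold (wild type, ACTH) and 1.80-fold (wild type, untreated). The last pair includes the male-labelled library with Xist, so by transcripts it does not set female against male. This limit holds for every count of 4 pairs below. The log2 fold change, labelled female over labelled male, was 1.07 (SE 0.28), with an edgeR p of 0.00482 before adjustment and 1 after adjustment over all genes, so it did not pass. Across 14 alternatives it ranged from 0.75 to 1.26 with adjusted p from 0.102 to 1, and it was 0.97 without the library whose sex transcripts go against its label. Aldh1a7 had a log2 fold change of 1.26 (SE 1.04) and Rarb 0.72 (SE 0.39), each with an edgeR adjusted p of 1, and both were higher in the gland labelled female in 4 of 4 pairs. Cyp26b1 (1.39, SE 1.47), Aldh1a2 (0.15, SE 0.58) and Rdh10 (0.09, SE 0.36) varied between pairs. Without the 2 wild-type libraries of doubt, the values were 0.80 for Aldh1a1, 0.80 for Aldh1a7, 0.46 for Rarb, -0.005 for Cyp26b1, -0.04 for Aldh1a2 and 0.21 for Rdh10. The X-zone sum was likewise higher in the gland labelled female in 4 of 4 pairs, and its part in these values was not tested. None of the 6 was called (0.026% of all genes), 1 had an unadjusted p under 0.05 (3.11%), 0 had glands labelled female apart from those labelled male (1.9%), and 3 of 6 were higher in all 4 pairs (6.49%). DESeq2 and limma-voom called none.

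The rest of the retinoid pathway was taken from a list of 58 symbols covering carriers, oxidoreductases, hydroxylases, receptors and responsive genes, of which 54 were in the files and 47 tested. Between genotypes 0 of 47 were called (0.026% of all genes) and 15 had an unadjusted edgeR p under 0.05 (13.4% of all genes did). DESeq2 called 7 (947 of all genes) and limma-voom none (108 of all genes). The median log2 fold change was -0.56, beside -0.04 over all genes, with 35 genes below 0 and 12 above. Counts of direction, here and by role below, were not set beside the share of all genes below 0. The median was -0.34 without the 2 wild-type libraries of doubt, and -1.02 without the female-labelled wild-type untreated library. Lrat and Dhrs9 were at 0 in all knockout libraries, and putting them at their bound left the median at -0.56. Knockout and wild-type libraries did not overlap for 3 of the 47 (8.92% of all genes), all lower in the knockout. Fewer libraries make this easier to reach. The number was 8 without the female-labelled wild-type untreated library (12.1% of all genes), 6 without the female-labelled knockout untreated library (14.7%), 7 without the female-labelled knockout ACTH library (14.5%) and 7 without the 2 wild-type libraries of doubt (17.6%).

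Among these 3, Dhrs3, a reductase that returns retinal to retinol, held 20.6, 4.91, 31.3 and 22.3 CPM in knockout glands (ACTH labelled female and male, then untreated labelled female and male) and 67.0, 42.3, 55.2 and 104 CPM in wild-type glands in that order. Every knockout value was below every wild-type value, with a log2 fold change of -1.96 (SE 0.43, edgeR adjusted p = 0.146), and -1.53 without the 2 wild-type libraries of doubt. Without the female-labelled wild-type untreated library alone, Dhrs3 passed the threshold (adjusted p = 0.0179). Bco2, a mitochondrial enzyme that cleaves carotenoids, was at 0 to 1.66 CPM in knockout and 3.47 to 13.3 CPM in wild-type glands. Rdh7, a liver-rich retinol dehydrogenase, had 317 CPM in the wild-type library with liver transcripts, 0.327 to 3.53 CPM in the 3 remaining wild-type ones and 0 to 0.307 CPM in knockout libraries. Rdh7 was called by DESeq2, and by edgeR without the female-labelled wild-type untreated library or without the male-labelled wild-type ACTH library.

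By role, carriers and storage genes (9 tested) had 7 below 0 and 2 above, and Rbp4, the plasma retinol carrier, and Ttr, its partner, were highest in the library with liver markers. Rbp4 was at 950 and Ttr at 2350 CPM in that wild-type library, against at most 24.3 and 37.6 CPM in the other 3. Of the 16 oxidoreductases tested, 13 were below 0. Adh1 and Adh5 were among those above 0. Adh1 was the most abundant retinoid gene per length at 2673 ± 648 RPKM (SD, n = 8). It averaged 4663 ± 1094 CPM in knockout and 3794 ± 868 CPM in wild-type glands (SD, n = 4 each). Its log2 fold change was 0.30 (SE 0.23), or 0.19 without the 2 wild-type libraries of doubt, and that of Adh5 was 0.10 (SE 0.14). Of the other retinal dehydrogenases, Aldh1a3 averaged 21.8 ± 10.2 CPM in knockout and 11.4 ± 5.45 CPM in wild-type glands (log2 fold change 0.97, SE 0.48, or 0.49 without the 2 wild-type libraries of doubt), with overlap. Aldh8a1, a liver and kidney enzyme, was at 62.6 and 36.2 CPM in the 2 wild-type libraries of doubt, at most 0.408 CPM in the other 2 and at most 1.14 CPM in knockout libraries. Aldh8a1 too was called by DESeq2, and by edgeR without the female-labelled wild-type untreated library.

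The retinoic acid carriers Fabp5 (-0.91, SE 0.27) and Crabp1 (-1.72, SE 2.03) overlapped between genotypes. The 5 other receptors were all below 0, with a median of -0.27 beside -0.04 over all genes. Rxrb had a log2 fold change of -0.27 (SE 0.23) and Rara -0.20 (SE 0.32), and Rxra -0.81 (SE 0.31), where 1 wild-type library, the one with liver transcripts, held 180 CPM and the other 3 held 44.0 to 60.6 CPM. Without the 2 wild-type libraries of doubt, Rxrb was at -0.09, Rara at -0.14 and Rxra at -0.43. Of 12 retinoic acid responsive genes, 6 lay above 0 and 6 below, with a median of -0.03 beside -0.04 over all genes. None of the 12 was called and none separated the genotypes.

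After ACTH, 0 of the 47 pathway genes were called by edgeR (0.0195% of all genes) and 6 had an unadjusted edgeR p under 0.05 (6.11%). DESeq2 called 2 (123 of all genes) and limma-voom none, and 4 did not overlap (3.89%). The median log2 fold change was 0.27 beside 0.02 over all genes. It was -0.03 without the female-labelled wild-type untreated library and also -0.03 without the female-labelled wild-type ACTH library, and 0.13 without both wild-type libraries of doubt. Rbp7, a cellular retinol-binding protein of endothelium and fat, held 50.6, 77.1, 26.2 and 41.5 CPM in ACTH-treated glands (knockout labelled female and male, then wild type labelled female and male) and 8.37, 18.7, 6.19 and 16.1 CPM in untreated glands in that order. All 4 treated values were above all 4 untreated ones, with a log2 fold change of 2.02 (SE 0.25, edgeR adjusted p = 0.132). Without the male-labelled wild-type untreated library it passed (adjusted p = 0.0235). The 4 endothelial markers summed to 248 to 462 CPM in ACTH-treated and 252 to 363 CPM in untreated glands, and 6 adipocyte markers to 2406 to 4820 CPM and 1619 to 2668 CPM. Their part in the Rbp7 values was not tested. Rara (-0.60, SE 0.32), Rdh14 (-0.51, SE 0.21) and Hoxb4 (-0.89, SE 0.33) were lower after ACTH without overlap and none was called. Hoxb4 was at -0.59 without the 2 wild-type libraries of doubt. Of the pathway genes, 8 did not overlap without the male-labelled wild-type untreated library (6.7% of all genes), 7 without the male-labelled knockout ACTH library (7.74%) and 11 without the 2 wild-type libraries of doubt (10.9%).

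Among the other 15 aldehyde dehydrogenases, enzymes of the same fold that act on amino acid, folate and lipid aldehydes, 0 were called between genotypes, 6 had an unadjusted edgeR p under 0.05 (13.4% of all genes), and 3 did not overlap (8.92%), all lower in knockout glands. By edgeR 0.026% of all genes were called. DESeq2 called 7 of the 15 (947 of all genes) and limma-voom 1 (108 of all genes). The median log2 fold change was -0.77, beside -0.04 over all genes, and -0.32 without the 2 wild-type libraries of doubt. Of the 3, Aldh4a1, which completes proline breakdown, held 48.3, 10.2, 72.3 and 43.2 CPM in knockout glands and 326, 135, 181 and 351 CPM in wild-type glands (ACTH labelled female and male, then untreated labelled female and male), with a log2 fold change of -2.76 (SE 0.48, adjusted p = 0.0997). Its 2 highest values were in the wild-type libraries with liver or kidney transcripts, and without them the log2 fold change was -2.13. Aldh1l1, the cytosolic folate enzyme, averaged 86.0 ± 28.8 CPM in knockout and 279 ± 101 CPM in wild-type glands (-1.72, SE 0.33, adjusted p = 0.112), and -1.20 without those libraries. Aldh5a1, which clears succinic semialdehyde from GABA breakdown, averaged 21.2 ± 3.87 CPM in knockout and 46.2 ± 5.25 CPM in wild-type glands (-1.13, SE 0.18, adjusted p = 0.0933), and -1.09 without them. Aldh4a1 and Aldh1l1 passed without the female-labelled wild-type untreated library (adjusted p = 0.00216 and 0.0265).

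The most abundant member of this set per length, Aldh2, a mitochondrial enzyme best known for ethanol metabolism, averaged 722 ± 92.4 CPM in knockout and 857 ± 127 CPM in wild-type glands (SD, n = 4 each), a log2 fold change of -0.24 (SE 0.15). Aldh6a1, of valine breakdown, had -0.77 (SE 0.27), or -0.48 without the 2 wild-type libraries of doubt. The number without overlap between genotypes was 5 without the male-labelled knockout ACTH library (11.3% of all genes) and 6 without the female-labelled one (14.5%). Without the male-labelled wild-type untreated library the median was -0.34. After ACTH, 0 of the 15 were called by edgeR (0.0195% of all genes), DESeq2 or limma-voom, and 0 had groups apart (3.89%). An unadjusted edgeR p under 0.05 was held by 1 (6.11% of all genes). The median log2 fold change was -0.05, or -0.12 without the 2 wild-type libraries of doubt. By sex label, Aldh1l2, of mitochondrial folate metabolism, was the 1 gene of 15 without overlap (1.47, SE 0.77, adjusted p = 1), at 3.93 to 9.99 CPM in glands labelled female and 0.588 to 3.49 CPM in glands labelled male. Over all genes, 1.9% were without overlap by this label. The median over the 15 was 0.35, beside 0.05 over all genes, and it was 0.17 and 0.20 without the male-labelled knockout ACTH library or the female-labelled knockout ACTH library and 0.53 without the female-labelled wild-type untreated library. Without the 2 wild-type libraries of doubt it was 0.23. Of the 47 pathway genes, 0 were called by sex label with any of the 3 tools (0.026% of all genes by edgeR). An unadjusted edgeR p under 0.05 was held by 3 (3.11% of all genes), and 0 were free of overlap (1.9%). Their median was 0.20, or 0.06 without the 2 wild-type libraries of doubt, beside 0.05 over all genes with all libraries.

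**Figure D5:**
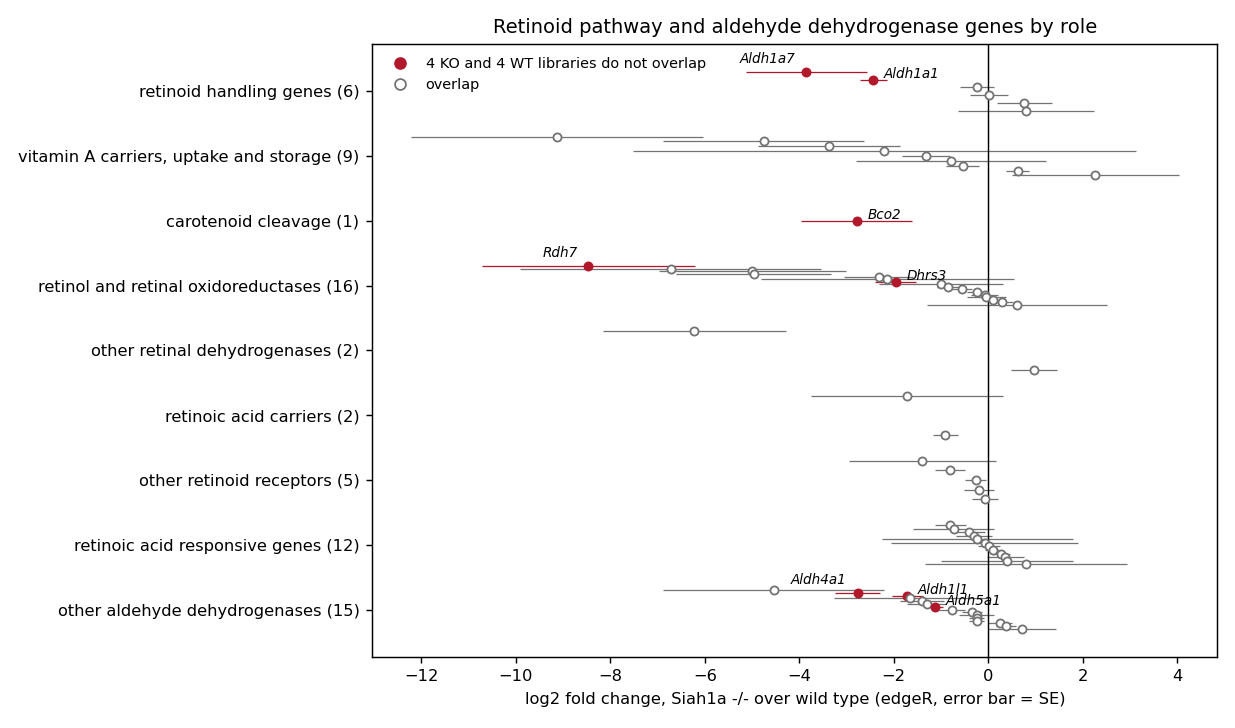
Log2 fold change, knockout over wild type, with its SE (edgeR), for the 6 genes, the 47 other tested retinoid genes by role and the 15 other aldehyde dehydrogenases. Filled points are genes whose 4 knockout and 4 wild-type libraries do not overlap, all of them at or below -1.13.

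The genes whose log2 levels followed each member most closely were sought among 12340 genes over the 8 libraries, as a description. For Aldh1a1 these were Tulp4 (Pearson r = 0.989), Arsg (0.978) and Gpt2 (0.978). Gpt2, a mitochondrial alanine aminotransferase, averaged 30.2 ± 16.8 CPM in knockout and 131 ± 36.1 CPM in wild-type glands (SD, n = 4 each). For Aldh1a7 they were Figf (0.980), Abcd4 (0.972) and Mettl7a1 (0.972), and Figf averaged 17.7 ± 12.6 CPM in knockout and 67.5 ± 15.3 CPM in wild-type glands. Aldh1a2 was closest to Lbh (0.983), Cpm (0.960) and Atp10a (0.958), Rdh10 to Tfb1m (0.955), Ptpn6 (0.954) and Prdx6 (0.949), Cyp26b1 to Fam120b (0.988), Spryd7 (0.985) and Gata4 (0.975), and Rarb to 2310011J03Rik (0.972), Trappc12 (0.952) and Coil (0.950). With 8 points and this many candidates, values of this height are reached for each of the 6 genes, including Cyp26b1 at a few CPM. Between members, Aldh1a1 and Aldh1a7 had r = 0.905. All 8 points share libraries, depth and the composition differences described above. No r was adjusted for genotype. Gpt2 and Figf were picked by likeness to genes that differ between genotypes, so their own gap is not a separate result.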

How the data were processed

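Per the file headers, the authors deposited an estimated count and an RPKM value for each of 28678 RefSeq transcripts in each of 8 libraries. Per the labels' protocols, libraries were directional and read single-end. The submitters' processing notes name FastQC 0.11, TopHat2 2.0.13, Bowtie2 2.2.5.0, Partek 6.6 and mm10, with settings and handling of multiply matching reads not given in the sources used here.

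Estimated counts were summed per symbol (18846 symbols, 5323 with several transcripts) and rounded. The filter filterByExpr (minimum count 10) kept 15361 genes and removed 3485, and TMM factors were 0.888 to 1.065. edgeR 4.0.16 (R 4.3.3) fitted genotype, treatment and sex label to all 8 libraries (4 residual degrees of freedom) by quasi-likelihood, with Benjamini-Hochberg adjustment over all genes and SE derived from F. Deposited RPKM served to compare levels between genes. Matched pairs share the other 2 labels, with a pseudocount of 0.5 CPM. Likeness is Pearson r of log2 CPM (prior count 2) among genes with mean log2 CPM of at least 1. Replicate libraries differed beyond sampling noise. Scripts were tested on simulated data. The motif background leaves out chromosome 18. Floors are 3 counts and cover counting error only.

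The members and gene lists were chosen with earlier results of these data known. The text names all members and, from each list, called genes and genes whose libraries did not overlap (up to 4 per direction), the highest in RPKM per role and the 3 genes most like each member. Genes at 0 in every knockout library and Gpt2 and Figf levels were added after their values were seen. Alternatives were RLE size factors, no filter, DESeq2 1.42.0, limma-voom (limma 3.58.1), no sex covariate, each library left out, the 2 wild-type libraries with liver or kidney transcripts left out, log2 RPKM (pseudocount 0.1) and the highest single transcript.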

Additional observations from a re-analysis of the deposited data

Results flagged for a closer look

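In 88 groups of 4 libraries, 6 had 1 library far from the other 3 by Dixon's criterion, which chance gives in about 1 group of 20. Among wild-type libraries, the ACTH-treated one labelled female, which holds 61270 CPM of liver markers, stood far above the rest for Rbp4 (950.2 CPM, others 7.55 to 24.3), Ttr (2350.0 CPM, others 5.27 to 37.6), Rdh7 (317.4 CPM, others 0.327 to 3.53), Rxra (179.8 CPM, others 44.0 to 60.6) and Rarres2 (175.9 CPM, others 12.3 to 27.8). Among knockout libraries, Bco2 was at 0.0 CPM in the ACTH-treated one labelled male and at 1.54 to 1.66 CPM in the other 3.

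Among the members and the list genes named above, the log2 difference ACTH minus untreated had opposite signs in the 2 genotypes for 4 genes, in both pairs of each. Over all tested genes, 4.36% were lower after ACTH in both knockout pairs and higher in both wild-type pairs, and 3.24% were the reverse. The difference between genotypes was not tested. With the pair labelled female first, Aldh1a1 had -1.16 and -0.31 in knockout pairs and 0.52 and 0.38 in wild-type pairs. For Aldh1a7 the values were -1.99 and -2.5 against 1.74 and 1.35, and for Rarb -1.04 and -0.42 against 0.29 and 0.75. Rarres2 had -0.02 and -1.37 against 3.78 and 0.61. Its -0.02 is close to no change, and its 3.78 involves the library with liver markers.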

How the results depend on the processing

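Aldh1a1 and Aldh1a7 stayed lower in the knockout under all 15 alternatives, with log2 fold changes from -2.73 to -2.21 and from -5.08 to -2.69. DESeq2 called more genes than edgeR in all 3 comparisons. The counts below are of called genes, and their causes were not tested, except that fewer libraries leave more genes without overlap.

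Between genotypes, the number of all genes called was 4, against 41 with no filter, 947 with DESeq2, 108 with limma-voom, 1 without the sex covariate and 0 to 253 with each library left out in turn. Of the members, 0 were called, against 1 with no filter, 2 with DESeq2, 1 with limma-voom and 0 to 1 with a library left out. Of the pathway list, 0 were called, against 7 with DESeq2 and 0 to 3 with a library left out. Of the other aldehyde dehydrogenases, 0 were called, against 7 with DESeq2, 1 with limma-voom and 0 to 2 with a library left out. Genes without overlap numbered 3 in the pathway list, against 7 without the 2 wild-type libraries of doubt and 3 to 8 with a library left out, and 3 to 6 in the other aldehyde dehydrogenases with a library left out. Over all genes the share was 17.6% without the 2 and 10.8 to 14.7% with a library left out.

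For ACTH, all genes called were 3, against 8 with no filter, 123 with DESeq2, 0 without the sex covariate, 0 without the 2 wild-type libraries and 0 to 23 with a library left out. Of the pathway list, 0 were called, against 2 with DESeq2 and 0 to 1 with a library left out. Genes without overlap were 4 in the pathway list, against 11 without the 2 wild-type libraries and 4 to 8 with a library left out, and 0 in the other aldehyde dehydrogenases, against 2 and 0 to 1, where shares over all genes were 10.9% and 5.59 to 8.13%.

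For sex label, all genes called were 4, against 7 with no filter, 21 with DESeq2, 0 with limma-voom, 7 without the 2 wild-type libraries and 1 to 25 with a library left out. Genes without overlap were 0 in the pathway list, against 4 without the 2 wild-type libraries and 0 to 3 with a library left out, and 1 to 2 in the other aldehyde dehydrogenases with a library left out, where shares over all genes were 7.92% and 3.0 to 5.61%.

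Signs turned for several values. After ACTH none of the members kept its sign: over 15 alternatives Aldh1a1 ranged from -0.41 to 0.13, Aldh1a7 from -1.60 to 1.51, Aldh1a2 from -0.67 to 0.69, Rdh10 from -0.23 to 0.31, Cyp26b1 from -0.39 to 1.71 and Rarb from -0.40 to 0.16. Between genotypes, Rarb ranged from -0.26 to 0.26, Cyp26b1 from -0.35 to 1.81 and Rdh10 from -0.51 to 0.19. By sex label, Aldh1a2 (0.15) was -0.038 without the 2 wild-type libraries and -0.417 to 0.94 with a library left out, Cyp26b1 (1.39) was -0.005 without the 2 wild-type libraries, and Rdh10 (0.09) was -0.11 to 0.39 with a library left out. Between genotypes, Rarres2 (-0.73) was 0.23 and Meis2 (0.10) was -0.10 without the 2 wild-type libraries. With a library left out, Rarres2 ranged from -1.43 to 0.32, Meis2 from -0.017 to 0.23, Adh5 from 0 to 0.19 and Aldh3b1 from -0.045 to 0.49.

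No paired analysis was possible because the labels give no animals or replicate numbers shared between groups. The matched pairs share labels only, and sex label entered the fit as a covariate. Depth allows up to 0.213 CPM for the 0 of Aldh1a7 and 0.353 CPM for the 0 of Cyp26b1.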
